A study of Rattus norvegicus with 8 samples.

Results

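The genes described here encode the core of the brain's hyaluronan-based matrix and of perineuronal nets. They are the lectican proteoglycans aggrecan (Acan), brevican (Bcan), neurocan (Ncan) and versican (Vcan), the link proteins Hapln1 and Hapln4, the tenascins Tnr and Tnc, the hyaluronan synthase Has3 and the receptor phosphatase Ptprz1. They were chosen by symbol among the protein-coding rows of the count table, and all 10 were found among 34298 gene models. All 10 were also among the 16573 gene models that passed the filter on low counts.

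Perineuronal nets are lattices of extracellular matrix that wrap the cell body and proximal dendrites of certain neurons, in cortex mostly the fast-spiking interneurons that express parvalbumin. A hyaluronan chain, made at the cell membrane by a synthase, forms the backbone, lecticans bind it through their link modules, link proteins lock that binding, and tenascin-R crosslinks the far ends of the lecticans. The same components also make up the looser matrix between other neurons and glia, and brain slices in which the sugar chains of lecticans are digested show altered synaptic plasticity.

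The rats were outbred Sprague-Dawley males, adult and 8 weeks old when they arrived. Each had 1 µl of siRNA with the transfection reagent JetPEI infused into the orbitofrontal cortex, which was collected 7 days later. The infusion held 5 ng of either a scrambled control siRNA (4 animals, replicates 1, 3, 4 and 5) or an siRNA that targets circNrxn3, a circle spliced from exons of the synaptic adhesion gene Nrxn3, at its backsplice (4 animals, replicates 1 to 4). No group without an infusion was analysed here, so both groups share the surgery and the reagent, and "knockdown" below means only that this siRNA was given. The guide of the knockdown siRNA is its antisense strand. Both strands are shown because the siRNA is what differs between the groups, and capitals mark the seed, bases 2 to 8.

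Antisense: uUCCUGUCuagccuuuggauu
Sense: uccaaaggcuagacaggaauu

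Messenger RNA was selected by its poly-A tail, so the counts hold mainly linear transcripts and do not measure the circle. The host gene Nrxn3 had 114 to 344 counts in scrambled and 82 to 430 counts in knockdown libraries, and these do not check the knockdown. Total counts were 27589883 to 35191810 in scrambled and 28219271 to 35221782 in knockdown libraries. No gene passed an adjusted p of 0.05 between the groups in edgeR's quasi-likelihood test (0 of 16573, 0%), 926 genes (5.59%) had an unadjusted p under 0.05, and DESeq2 called 6 genes (1077 at an unadjusted p under 0.05). The groups' values did not overlap in 576 genes (3.48%). These samples are bulk tissue, in which fewer cells of a type and less RNA per cell cannot be told apart.

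The 10 genes covered a wide range of levels, compared here as FPKM, the authors' read count scaled for the length of the gene model and for the library. Bcan, the lectican secreted mainly by glia in adult brain, was the highest, with a median of 85.7 FPKM over the 8 libraries and a range of 55.5 to 108 FPKM. Hapln4, the link protein also called Bral2, followed with a median of 52.3 FPKM (38.3 to 67.2), and it was below Bcan in each of the 8 libraries although their ranges overlapped. These genes formed the upper step, and no library of Hapln4 reached down to any library of the next gene. The second step held Ncan, a lectican of young and adult brain (median 6.84 FPKM, 5.45 to 8.82), Hapln1, the link protein found in cartilage and in nets (6.63 FPKM, 5.19 to 8.60), and Ptprz1, whose secreted splice form is the proteoglycan phosphacan (6.21 FPKM, 5.15 to 8.17). The order within this step was not resolved, since Ncan exceeded Hapln1 in 4 of 8 libraries and Hapln1 exceeded Ptprz1 in 6 of 8.

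The third step lay below the lowest Ptprz1 library. It held Tnr (median 1.08 FPKM), the large lectican Vcan (1.02 FPKM), Tnc (0.730 FPKM), Acan (0.466 FPKM) and Has3 (0.272 FPKM), each overlapping its neighbour in the order. Acan, the lectican most used to mark perineuronal nets, was thus detected at 58 to 153 reads per library, and Has3 at 41 to 90 reads. Counting error alone is therefore larger for these 2 genes than for Bcan, which had 6836 to 10531 reads. The order and its 2 gaps were the same when counts per kb were scaled with TMM factors instead. FPKM values depend on the gene models, which for splice-rich genes such as Ptprz1 and Bcan pool several forms.

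**Figure D1:**
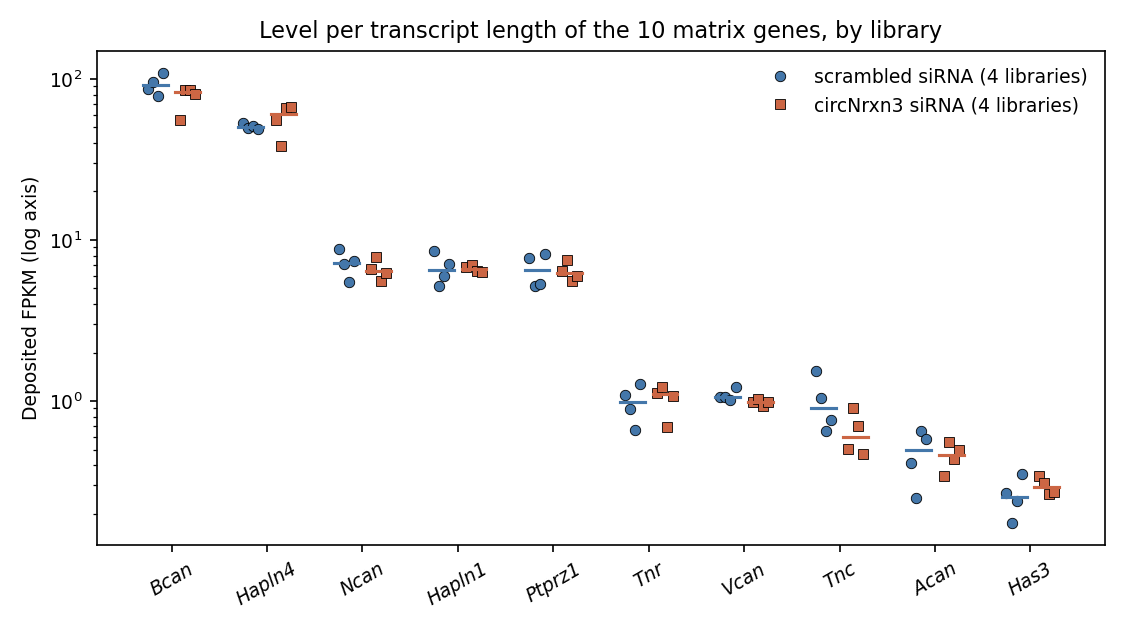
Deposited FPKM of the 10 matrix genes (log axis), 1 point per library and a bar at each group's median; blue circles are scrambled and orange squares knockdown libraries. The genes fall into steps led by Bcan (median 85.7), Ncan (6.84) and Tnr (1.08), and within every gene the groups overlap.

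The comparison of the groups asks whether infusion of the circNrxn3 siRNA was accompanied by a change in these matrix transcripts. None of the 10 genes passed the threshold (edgeR adjusted p = 0.833 to 0.999, Benjamini-Hochberg over the 16573 genes). None had an unadjusted p under 0.05, against 2.38% of all genes tested that were higher and 3.2% that were lower at that level. None had groups without overlap, against 1.82% of all genes with knockdown higher and 1.65% with knockdown lower. By sign, 3 members were above 0 and 7 below, while 51.3% of all genes were above 0. The members' median log2 fold change of knockdown over scrambled was −0.04, beside 0.01 for all genes. The standard errors ran from 0.11 for Vcan to 0.31 for Tnc, and for Acan the interval allowed a knockdown level of 0.602 to 1.56 times the scrambled level. In the text below, levels of a single gene across libraries are counts scaled to library size with TMM factors (CPM), and fold changes are log2 values of knockdown over scrambled from edgeR with 95% intervals.

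Among the lecticans, Bcan had the largest difference. Its level was 287, 314, 258 and 357 CPM in the scrambled group (replicates 1, 3, 4, 5) against 185, 285, 283 and 264 CPM in the knockdown group (replicates 1 to 4). Knockdown replicate 1 was the lowest of all 8 libraries and scrambled replicate 5 the highest, while the other 3 knockdown libraries lay within the scrambled range. The log2 fold change was −0.26 (interval −0.58 to 0.07, edgeR adjusted p = 0.833), and it was −0.13 without knockdown replicate 1. Astrocytes are a main source of brevican. Summed astrocyte markers were at 4024 to 4355 CPM in scrambled and 3590 to 3915 CPM in knockdown libraries. These sums do not overlap. In edgeR 2 of the 12 markers were lower at an unadjusted p under 0.05 and 0 higher, against 3.2% and 2.38% of all genes. None of the 12 markers had groups without overlap by itself, against 3.48% of all genes. In that list 9 of 12 markers had fold changes below 0 and 3 above, from −0.43 (Gfap) to 0.20. S100b, the highest in level, had −0.17, and Slc4a4, the lowest in level, −0.04. The edgeR adjusted p was 0.833 for Gfap and S100b and 0.994 for Slc4a4, and none of the 12 was at 0 counts. Their part in the Bcan values was not tested.

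Ncan was at 46.4, 36.8, 28.4 and 38.6 CPM in the scrambled group (replicates 1, 3, 4, 5) against 34.9, 41.1, 29.3 and 32.8 CPM in the knockdown group (replicates 1 to 4). Scrambled replicate 4 and knockdown replicate 3 were the lowest of their groups, and the knockdown values lay within the scrambled range (log2 fold change −0.12, interval −0.45 to 0.21). That value ranged from −0.24 without scrambled replicate 4 to −0.0016 without scrambled replicate 1. Vcan, which is made by oligodendrocyte precursors and other glia, varied least over the 8 libraries, at 12.5, 12.2, 11.7 and 14.1 CPM in the scrambled group against 11.6, 12.01, 10.9 and 11.5 CPM in the knockdown group. Knockdown replicates 1, 3 and 4 were below every scrambled library and replicate 2 was not. Its SD was 8.33% of the mean with scrambled siRNA and 4.16% after knockdown, and its log2 fold change was −0.14 (interval −0.39 to 0.12), or −0.0844 without scrambled replicate 5. For Vcan the interval bounds the knockdown level at 0.765 to 1.08 times the scrambled level. Acan was at 2.90, 1.73, 4.56 and 4.08 CPM in the scrambled group against 2.43, 3.92, 3.06 and 3.47 CPM in the knockdown group. All knockdown values of Acan lay inside the scrambled range, with the extremes in scrambled replicates 3 and 4 (log2 fold change −0.04, interval −0.73 to 0.64).

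The link proteins differed from one another in how they spread. Hapln1 was at 44.3, 26.4, 30.5 and 36.5 CPM in the scrambled group (replicates 1, 3, 4, 5) against 35.4, 36.2, 33.1 and 32.7 CPM in the knockdown group (replicates 1 to 4). The knockdown libraries lay close together in the middle of the scrambled range, with an SD of 4.96% of the mean against 22.6%, and the log2 fold change was −0.002 (interval −0.32 to 0.31). Hapln4 showed the opposite spread. It was at 199.9, 183, 188 and 180.2 CPM in the scrambled group (SD 4.62% of the mean) against 207, 143, 245 and 249.8 CPM in the knockdown group (SD 23.3% of the mean). Knockdown replicates 1, 3 and 4 lay above every scrambled library and knockdown replicate 2 below every one of them. Its log2 fold change was 0.17 (interval −0.17 to 0.51, edgeR adjusted p = 0.864) and 0.32 without knockdown replicate 2, which did not pass either (edgeR adjusted p = 0.99987). It was 0.0823 without knockdown replicate 3 and 0.0788 without knockdown replicate 4. Whether the spreads differ between groups was not tested.

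Has3 (ENSRNOG00000059362, rn6 chromosome 19, 39063998 to 39077722, plus strand) extends hyaluronan chains at the plasma membrane. It was at 1.90, 1.22, 1.67 and 2.48 CPM in the scrambled group (replicates 1, 3, 4, 5) against 2.43, 2.19, 1.87 and 1.92 CPM in the knockdown group (replicates 1 to 4). All knockdown values lay within the scrambled range. The log2 fold change was 0.21 (interval −0.40 to 0.83), and it ranged from 0.058 without scrambled replicate 3 to 0.39 without scrambled replicate 5. The Has3 gene model overlaps the end of Chtf8 on the opposite strand, whose counts reach 1975 in a library. The sources used here do not say whether reads were counted by strand, which leaves some Has3 reads uncertain.

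The tenascins are multi-armed glycoproteins (Tnr ENSRNOG00000002468, rn6 chromosome 13, 77485113 to 77678437, plus strand, and Tnc ENSRNOG00000058645, chromosome 5, 79789671 to 79874671, minus strand). Tnr is made by oligodendrocyte lineage cells and some interneurons in adult brain, and Tnc mainly by astrocytes in development and after injury. Tnc had the largest difference of the 10 genes. It was at 11.3, 7.51, 4.68 and 5.51 CPM in the scrambled group (replicates 1, 3, 4, 5) against 3.68, 6.59, 5.11 and 3.40 CPM in the knockdown group (replicates 1 to 4). Knockdown replicates 1 and 4 were below every scrambled library, knockdown replicates 2 and 3 were not, and scrambled replicate 1 stood highest. The log2 fold change was −0.62 (interval −1.32 to 0.07, unadjusted p = 0.0714 and adjusted p = 0.833 in edgeR), a ratio of 0.648. Without scrambled replicate 1 it was −0.33. The part of the lower astrocyte marker sums, given with Bcan, in these values was not tested. Tnr was at 7.69, 6.20, 4.62 and 9.01 CPM in the scrambled group against 8.03, 8.68, 4.86 and 7.63 CPM in the knockdown group, with 1 low library in each group (scrambled replicate 4 and knockdown replicate 3). The log2 fold change of Tnr was 0.09 (interval −0.46 to 0.63).

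Ptprz1 (ENSRNOG00000006030, rn6 chromosome 4, 49941304 to 50140762, plus strand) binds tenascins, contactin and the growth factor pleiotrophin. It was at 61.1, 40.4, 41.9 and 64.5 CPM in the scrambled group (replicates 1, 3, 4, 5) against 51.3, 59.8, 44.4 and 47.5 CPM in the knockdown group (replicates 1 to 4). The scrambled libraries formed a high and a low pair, and all knockdown libraries lay between the extremes of the scrambled group (log2 fold change −0.03, interval −0.41 to 0.34).

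**Figure D2:**
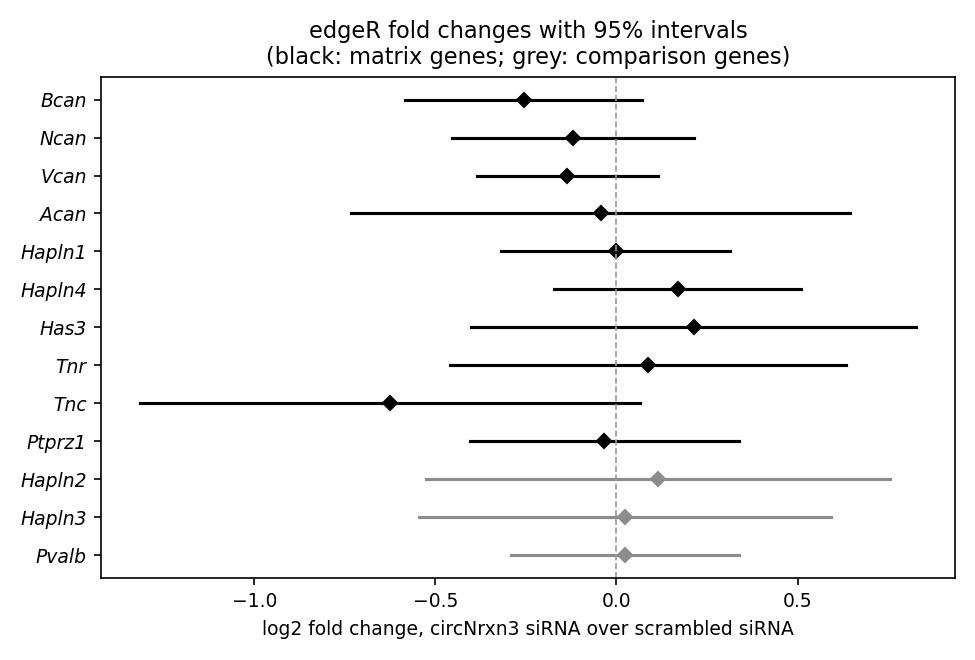
Log2 fold change of knockdown over scrambled for each matrix gene (black) and for Hapln2, Hapln3 and Pvalb (grey), with bars for the 95% interval from edgeR (4 libraries per group). Every interval includes 0, from the narrowest, Vcan (−0.39 to 0.12), to the widest, Tnc (−1.32 to 0.07).

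Each lectican gene lies beside a link protein gene. In the rn6 coordinates of the table, Acan (ENSRNOG00000028992, chromosome 1, 140762758 to 140824441, plus strand) ends 2.85 kb from the end of Hapln3. Ncan (ENSRNOG00000048036, chromosome 16, 21050243 to 21076707, plus strand) ends 4.67 kb from the end of Hapln4 (ENSRNOG00000049949, 21081377 to 21089508, minus strand). Vcan (ENSRNOG00000029212, chromosome 2, 18490102 to 18565842, minus strand) ends 71 kb from the end of Hapln1 (ENSRNOG00000032002, 18354542 to 18419071, plus strand). These 3 pairs face each other tail to tail with no gene model between them. Bcan (ENSRNOG00000018798, chromosome 2, 187359677 to 187372657, minus strand) and Hapln2 lie 23.7 kb apart on the same strand, with 1 gene model between them. Hapln2, a link protein of myelinated axons, and Hapln3 were not among the 10 genes and had log2 fold changes of 0.11 and 0.02. Over the 8 libraries the neighbours Ncan and Hapln4 had a Pearson r of −0.50 (exact permutation p = 0.207, adjusted p = 0.520 over 45 pairs, Spearman rho −0.52, exact permutation p = 0.197), and r was −0.93 without the 2 libraries farthest from the median of Ncan. Vcan and Hapln1 had r = 0.29 (exact permutation p = 0.466, adjusted p = 0.746, rho = 0.45, exact permutation p = 0.267), and r = 0.34 without 2 libraries. Neither pair passed after adjustment, and the value for Ncan and Hapln4 depended on which libraries were kept.

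How the 10 genes varied together was examined over all 45 pairs, as the correlation of log2 CPM over the 8 libraries. No pair passed after adjustment over the 45. The closest pair was Hapln1 and Ptprz1, with a Pearson r of 0.84 (exact permutation p = 0.00268, adjusted p = 0.121) and a Spearman rho of 0.95 (exact permutation p = 0.00114, adjusted p = 0.0513), and r was 0.92 without the 2 libraries farthest from the median of Hapln1. Tnr and Ptprz1 followed, with r = 0.81 (exact permutation p = 0.0195, adjusted p = 0.318), rho = 0.86 (exact permutation p = 0.0107, adjusted p = 0.161) and r = 0.88 without 2 libraries. Has3 and Ptprz1 had r = 0.75 (exact permutation p = 0.0236, adjusted p = 0.318), rho = 0.83 (exact permutation p = 0.0154, adjusted p = 0.173) and r = 0.52 without 2 libraries. Ptprz1 was in each of the 3 pairs with the smallest Pearson p. By rank, Tnr and Has3 came second (rho = 0.88, exact permutation p = 0.00724, adjusted p = 0.161, and r = 0.60, exact permutation p = 0.114). With the group means subtracted, Vcan and Tnr had r = 0.88 and shared the smallest p with Hapln1 and Ptprz1 (permutation p = 0.00241, adjusted p = 0.0541). This permutation also moved values between the groups, which the subtraction does not allow for, so its p is not exact and can be too small. With 1 library left out, 1 pair passed without scrambled replicate 3 and 1 without scrambled replicate 5. For Tnr and Tnc r was near 0 (r = 0.10, exact permutation p = 0.822, rho = 0.19, exact permutation p = 0.665).

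**Figure D3:**
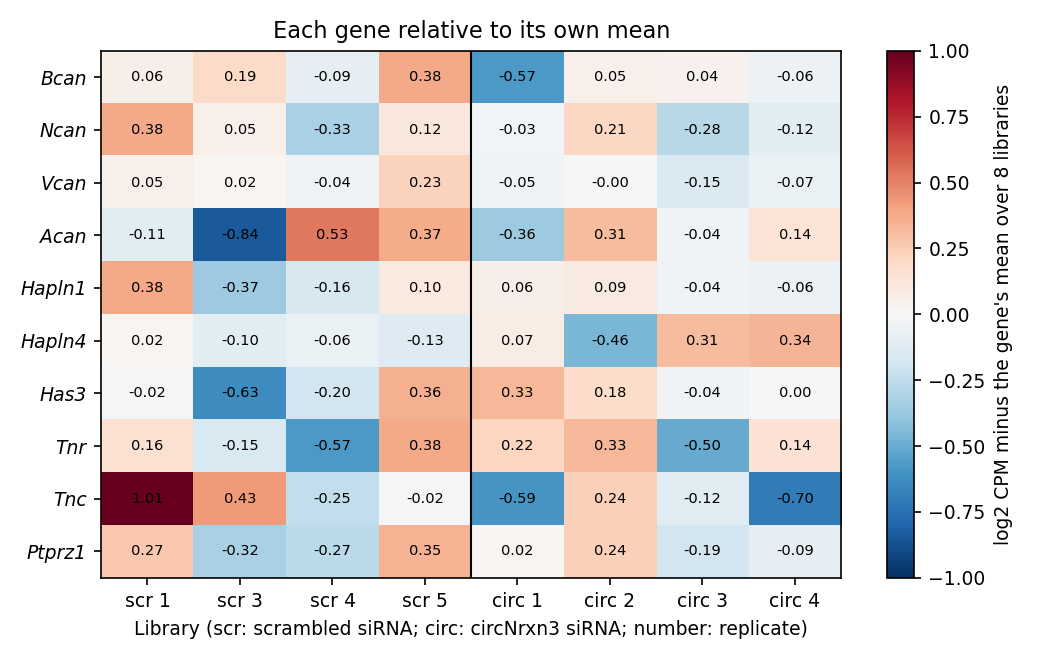
Log2 CPM of each matrix gene (rows) in each library (columns) minus that gene's mean over the 8 libraries, printed in each cell; red is above and blue below the mean. Scrambled replicate 4 and knockdown replicate 3 are low in Ncan (−0.33 and −0.28) and Tnr (−0.57 and −0.50), whereas Tnc is highest in scrambled replicate 1 (1.01).

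Most of these genes have long transcripts, so a measure of transcript length was read beside them. The log2 ratio of the summed CPM of gene models of at least 3486 bp to that of gene models of at most 1372 bp was −0.18 to 0.06 in scrambled and −0.06 to 0.26 in knockdown libraries. No member was related to it after adjustment over the 10 genes. The largest Pearson r was that of Tnr (0.60, exact permutation p = 0.12, adjusted p = 0.554, Spearman rho 0.38, exact permutation p = 0.36, and r = 0.25 without the 2 libraries farthest from the median ratio). With the ratio as a covariate in edgeR the log2 fold change of Tnr turned to −0.29, that of Ncan became −0.44 and that of Tnc −1.05, and none passed. In that edgeR fit the adjusted p = 0.999 for each, with an unadjusted p = 0.00294 for Ncan and 0.00564 for Tnc. Such a p under 0.05 was found for 679 of the 16573 genes. The part of the ratio in these fold changes was not tested beyond this fit.

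Nets surround parvalbumin interneurons, whose calcium buffer Pvalb was at 124 to 188 CPM in the scrambled group against 144 to 186 CPM in the knockdown group (log2 fold change 0.02). Summed CPM of 10 markers of these cells was 528 to 672 in scrambled and 608 to 663 in knockdown libraries, with 7 of 10 markers above 0, none at 0 counts and the list's median at 0.09 in log2. Each member was compared over the 8 libraries with a marker score, the mean over the 10 markers of log2 CPM minus each marker's own mean. The score had r = 0.03 with Pvalb itself (exact permutation p = 0.940, rho = 0.02, exact permutation p = 0.977). With a centred long-to-short score, added after seeing the data, it had r = 0.67 (exact permutation p = 0.0671, adjusted p = 0.201 over 3 relations, rho = 0.74, exact permutation p = 0.0458, adjusted p = 0.138). Tnr itself had r = 0.80 with that length score (exact permutation p = 0.0165, adjusted p = 0.165 over the 10 genes, rho = 0.74, exact permutation p = 0.0458). The part of transcript length in the relations that follow was not tested. Tnr had a Pearson r of 0.92 (exact permutation p = 6.7e-04, adjusted p = 0.0067 over the 10 genes) and a Spearman rho of 1 (exact permutation p = 5.0e-05, the smallest these arrangements allow for a 2-sided test without ties, adjusted p = 5.0e-04), with r = 0.92 without 2 libraries. Ptprz1 had r = 0.84 (exact permutation p = 0.00863, adjusted p = 0.0432), rho = 0.86 (exact permutation p = 0.0107, adjusted p = 0.0357) and r = 0.72 without 2 libraries. Has3 passed by rank only (rho = 0.88, exact permutation p = 0.00724, adjusted p = 0.0357, and r = 0.66, exact permutation p = 0.0733). Acan had r = 0.14 (exact permutation p = 0.744, rho = 0.05, exact permutation p = 0.935).

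The relation of Tnr and Ptprz1 to this score depended on its least abundant markers. Erbb4, a neuregulin receptor at 3 to 52 counts per library, had a range of 3.52 in log2 CPM, against 0.60 for Pvalb. Its lowest libraries, with 3 counts each, were scrambled replicate 4 and knockdown replicate 3, which are also the lowest for Tnr. With the score taken from the 8 markers with a mean of at least 5 CPM, leaving out Erbb4 and Lhx6, Tnr had r = 0.24 (exact permutation p = 0.569, adjusted p = 0.817, rho = 0.43, exact permutation p = 0.299) and Ptprz1 r = 0.41 (exact permutation p = 0.325, adjusted p = 0.651, rho = 0.43, exact permutation p = 0.299). With Pvalb alone, Tnr had r = −0.06 (exact permutation p = 0.888, adjusted p = 0.888, rho = 0.02, exact permutation p = 0.977), and Acan r = 0.76 (exact permutation p = 0.0276, adjusted p = 0.276, rho = 0.79, exact permutation p = 0.0279). Both of these settings were chosen after seeing the data. On log2(FPKM + 1) values r was 0.56 for Tnr and 0.59 for Ptprz1 (exact permutation p = 0.143 and 0.0982, adjusted p = 0.358 each). Without scrambled replicate 4 no member passed by Pearson's r, and 1 passed without scrambled replicate 5 or any 1 knockdown library. Without scrambled replicate 1 and without scrambled replicate 3, 3 members passed in each case. With the group means subtracted, added after seeing the data, 3 members fell under the threshold, among them Vcan (r = 0.99, permutation p = 5.0e-05, adjusted p = 5.0e-04, rho = 0.98, permutation p = 3.97e-04). As for the pairs, this permutation moved values between the groups, so its p is not exact. Whether these members pass is therefore uncertain.

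**Figure D4:**
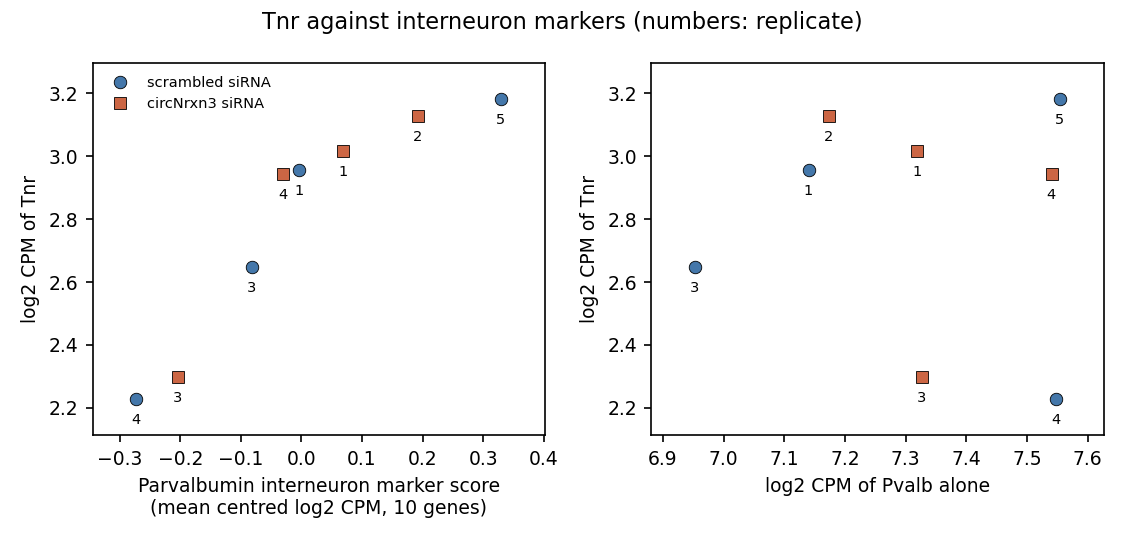
Log2 CPM of Tnr against the score of 10 parvalbumin interneuron markers (left) and against log2 CPM of Pvalb alone (right), 1 point per library with its replicate number; circles are scrambled and squares knockdown libraries. Tnr rises with the score (r = 0.92) but not with Pvalb (r = −0.06), and scrambled replicate 4 and knockdown replicate 3 are lowest in Tnr in both panels.

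Promoter sequences were read for the tenascin genes, shown because these paralogues overlapped in level while their correlation over the libraries was near 0. With 8 libraries that correlation was not resolved (Pearson r = 0.10, exact permutation p = 0.822). Another pair, Acan and Tnr, was as near 0 (r = 0.01). Whether the promoters have a part in these values was not tested. The sequences are the 250 bases before the annotated start from RefSeq, build GRCr8, which is not the rn6 build of the counts, and 8 of the 10 members had an entry. Capitals mark every match to TATAA (the core of a TATA box) or GGGCGG (a GC box) on either strand, and matches may overlap.

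Tnr (chr13:74624776-74625025, plus strand): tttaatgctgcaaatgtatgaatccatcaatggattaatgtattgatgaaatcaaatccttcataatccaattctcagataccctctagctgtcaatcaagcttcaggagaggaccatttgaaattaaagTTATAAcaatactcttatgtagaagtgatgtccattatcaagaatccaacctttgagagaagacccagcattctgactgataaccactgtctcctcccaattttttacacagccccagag
Tnc (chr5:82476132-82476381, minus strand): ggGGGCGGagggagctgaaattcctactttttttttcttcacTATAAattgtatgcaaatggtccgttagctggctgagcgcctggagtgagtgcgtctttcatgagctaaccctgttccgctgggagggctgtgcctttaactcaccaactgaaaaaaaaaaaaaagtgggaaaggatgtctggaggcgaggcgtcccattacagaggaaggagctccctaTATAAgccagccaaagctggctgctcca

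The Tnr window had a GC content of 36.8%, and 8.59% of 33465 windows of the same length were at or below it. Its single marked stretch is TTATAA, which matches TATAA on both strands. The Tnc window had a GC content of 49.6%, 2 matches to TATAA and 1 to GGGCGG. Among all windows 24.0% held TATAA and 30.5% held GGGCGG, and a match describes letters only.

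Beyond the 10 genes, 9 lists of other matrix genes were read, with 187 distinct gene models tested. No gene in them passed the adjusted threshold. An unadjusted p under 0.05 in edgeR was found for 10 of 187 (5.35%, against 5.59% of all genes), 5 higher and 5 lower, and the groups did not overlap in 8 (4.28%, against 3.48%). The median log2 fold change was 0.01, the same to 2 decimals as for all genes. All genes named below had an edgeR adjusted p of 0.833 or more, and they are given as values.

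Genes that make and sulfate chondroitin chains, the sugar side chains of lecticans, had their median at −0.01 in log2, and 12 of 25 were above 0. Ust, which adds a sulfate to the uronic acid of the chain, had the largest value (1.29, standard error 0.42), with means of 0.354 ± 0.136 CPM (SD, n = 4) with scrambled siRNA and 0.867 ± 0.158 CPM (SD, n = 4) after knockdown. Its groups did not overlap, and both means were under 1 CPM. B3gat3, which completes the linker that joins the chain to the protein, averaged 449 ± 38.2 CPM with scrambled siRNA and 375 ± 50.8 CPM after knockdown (SD, n = 4 for both), which is −0.26 in log2, and Chpf, a chain polymerising factor, had −0.22. Genes that break the chains down had a median of 0.06 with 8 of 11 above 0, among them the lysosomal enzymes Idua (0.18) and Galns (−0.16).

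Genes of hyaluronan synthesis, turnover and binding had a median of 0.04, with 7 of 14 above 0. Cd44, the cell-surface hyaluronan receptor of astrocytes and leukocytes, averaged 2.58 ± 1.04 CPM (SD, n = 4) with scrambled siRNA and 1.23 ± 0.221 CPM (SD, n = 4) after knockdown, and these did not overlap. The difference was −1.07 ± 0.33 in log2 (standard error). Has1, another hyaluronan synthase, had 0.52 and Hyal2, a hyaluronidase at the cell surface, −0.16. Infiltrating leukocyte markers were at 54.6 to 107 CPM in the scrambled group against 52.0 to 69.1 CPM in the knockdown group, with 6 of 6 tested below 0, and their part in the Cd44 values was not tested.

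Other link proteins and proteoglycans had a median of 0.02 with 8 of 14 above 0, and Spock3, a testican, had 0.43. Cspg5, also called neuroglycan C, had −0.13 with groups that did not overlap, and Cspg4, the NG2 proteoglycan of oligodendrocyte precursors, −0.21. Matrix proteases had a median of 0.05 with 14 of 23 above 0. The sheddase Adam10 had 0.59, the ADAMTS family protease Adamts8 0.41 and the membrane protease Mmp24 −0.14. Among protease inhibitors, 5 of 9 were above 0, with a median of 0.004. Reck, a membrane-anchored inhibitor of metalloproteinases, had 0.31 with groups that did not overlap, Timp1 had −0.67 and Serpine2 0.11.

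Receptors, ligands and signals bound to nets had a median of 0.01, with 16 of 31 above 0. In edgeR 4 of the 31 had an unadjusted p under 0.05, 2 higher and 2 lower, against 5.59% of all genes. Rtn4rl2, a Nogo receptor family member, averaged 121 ± 20.2 CPM (SD, n = 4) with scrambled siRNA and 91.3 ± 5.32 CPM (SD, n = 4) after knockdown, and its log2 fold change was −0.41 ± 0.11 (standard error). Cntn2, an axonal adhesion protein of juxtaparanodes, had 0.35 and Nrp1, the neuropilin that binds semaphorin 3A, 0.36. For these 3 genes the groups did not overlap. Other glycoproteins of the matrix had a median of −0.04 with 11 of 27 above 0, where Fbln1 had −0.34, Lgi2 0.21 and Postn −0.46. Collagens and laminins had a median of −0.05 with 15 of 33 above 0, where Lamb3 had −0.40 and Col11a1 0.68.

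**Figure D5:**
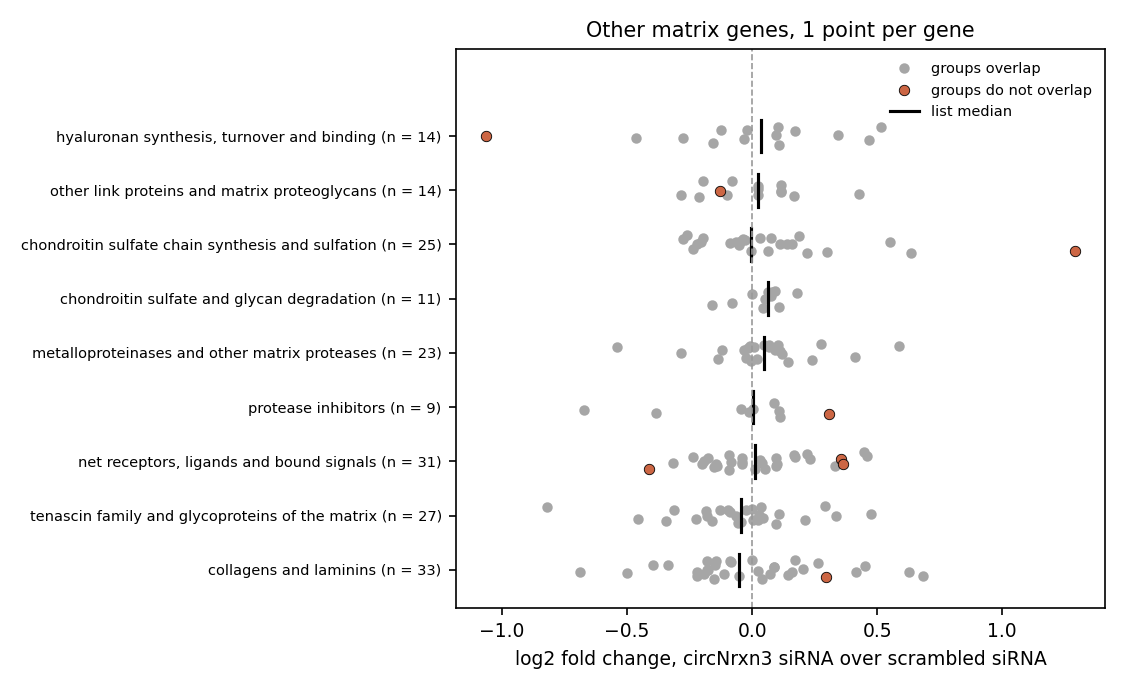
Log2 fold change of knockdown over scrambled for every tested gene in 9 lists of other matrix genes, 1 point per gene, with a black bar at the list median; orange points are genes whose groups do not overlap. Medians lie between −0.05 and 0.06, and Ust (1.29) and Cd44 (−1.07) are the outermost points.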

How the data were processed

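The authors deposited whole-number read counts per gene, without normalization, and FPKM values for the same gene models, 1 column per sample. Tools listed in the submitters' processing notes, without roles or settings, are featureCounts 1.5.0-p3, HISAT2 2.0.5, StringTie 1.3.3b and fastp, with rn6 as the build, and per the labels' protocols the libraries were directional. The FPKM values deposited were used for levels between genes, and dividing counts by them gave totals 0.952 to 1.07 times the count total, so they were already scaled between libraries.

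Columns were matched to samples by title. Per the labels each group has 4 biological replicates. All pairs within a group differed by more than sampling noise (chi-square over its degrees of freedom was 23.2 to 47.4, genes with at least 20 counts). Counts were fitted with edgeR 4.0.16 in R 4.3.3: filterByExpr (minimum count 10), TMM, robust quasi-likelihood F test, no covariates, 2-sided, Benjamini-Hochberg adjustment over 16573 genes, threshold 0.05. Standard errors were taken from the fold change and its F value. Log2 CPM used a prior count of 2. Alternatives used DESeq2 1.42.0 and limma 3.58.1. Correlations used exact permutation of the pairings over the 8 libraries, adjusted within each family (45, 10 and 10 relations). Values with group means subtracted were permuted in the same way, across groups, so p is not exact for them. The fit and the permutation test were tested on simulated data.

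The 10 genes and all lists were chosen with earlier results of these data known. Named are the 10 genes, Hapln2, Hapln3 and Pvalb, and the 3 genes with the smallest p in each matrix list, of which some are not reported here. Of the cell type lists, markers with the highest or lowest level and markers at 0 counts may be named. Gfap, Erbb4, Lhx6 and Chtf8 were named after their values were seen. Of 203 symbols in the matrix lists 198 were found.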

Additional observations from a re-analysis of the deposited data

How the results depend on the processing

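No member passed under any of the 22 alternatives (smallest adjusted p = 0.273 for Hapln4 with edgeR and a replicate block). With DESeq2 7 members had no adjusted p and could not pass, among them Tnc (unadjusted p = 0.0396). Among the 22, a looser adjusted p threshold and non-robust dispersions left the fold changes of the main fit unchanged. These settings could not reverse a sign. Bcan, Ncan, Vcan, Tnc, Hapln4 and Has3 kept their sign under all 22, these settings included. The other 4 members had fold changes near 0. Of the 22 alternatives Hapln1 reversed in 9, Acan in 6, and Tnr and Ptprz1 in 4 each. Acan was 0.0215 with limma-voom, 0.00124 with log2(FPKM + 0.1) and 0.0431 with the replicate block. Hapln1 was 0.00249 with upper-quartile scaling, 0.0354 with limma-voom, 0.00672 with log2(FPKM + 1), 0.0104 with log2(FPKM + 0.1) and 0.0323 with the block, and Ptprz1 0.0205 with the block. Tnr was −0.29 with the long-to-short ratio as a covariate and −0.25 with a centred long-to-short score, added after seeing the data. With that score 3 of 10 members had an unadjusted p under 0.05 in edgeR, against 863 of 16573 genes. They were Ncan (−0.36, unadjusted p = 0.0012, adjusted p = 0.862), Tnc (−0.90, unadjusted p = 0.0106, adjusted p = 0.953) and Ptprz1 (−0.27, unadjusted p = 0.0395, adjusted p = 0.953). With 1 library left out, log2 fold changes ran from −0.27 to 0.15 for Acan, −0.11 to 0.14 for Hapln1, −0.14 to 0.0817 for Ptprz1, −0.0691 to 0.24 for Tnr, −0.0722 to 0.28 for Hapln2 and −0.12 to 0.24 for Hapln3. The cause of these reversals was not tested.

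DESeq2 called 6 genes, leaving out 1 library gave 0 to 1 genes (1 without knockdown replicate 2 and 1 without knockdown replicate 3), and all other settings 0. The replicate block also called 0 genes and 0 members. Number 2 occurs only with knockdown and number 5 only with scrambled siRNA, so the block's fold changes rest on numbers 1, 3 and 4. An unadjusted p under 0.05 in edgeR was found for 1674 of 16573 genes and for 2 of the 10 members in that fit. These were Hapln4 (0.29, unadjusted p = 0.00805, adjusted p = 0.273) and Tnc (−0.88, unadjusted p = 0.0142, adjusted p = 0.342). Same-numbered libraries had correlated deviations for number 1 (r = 0.37) and number 3 (r = 0.30) but not for number 4 (r = 0.09). Between libraries of different number r ran from −0.44 to 0.28. The main fit did not take the numbers as pairs, and whether they mark pairs was not settled. Members related to the interneuron markers numbered 2, and 0 with log2(FPKM + 1), 0 with Pvalb alone, 0 with markers of at least 5 CPM and 0 to 3 with 1 library left out. Leave-one-out gave 0 to 1 for pairs of members and 0 to 1 for members related to the long-to-short ratio (1 without scrambled replicate 5). Has3 and Acan had the lowest minimum counts of the 10 genes (41 and 58 reads in a library), while Tnc had the largest standard error (0.31). The part of depth in these errors was not tested.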

Other observations

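Markers of other cell types that make or bear this matrix were read as sums over each list, and no gene in them passed the edgeR threshold. Oligodendrocyte precursors, a source of versican and of the NG2 proteoglycan, were at 303 to 447 CPM in scrambled and 301 to 380 CPM in knockdown libraries, with 6 of 9 tested markers below 0, from Olig1 at a mean of 122 CPM to Gpr17 at 1.98 CPM. Oligodendrocyte markers were at 2110 to 4937 and 2674 to 4347 CPM, with 12 of 12 above 0 and a median log2 fold change of 0.16. Meningeal fibroblast markers, a sign of tissue taken with the brain surface, were at 66.6 to 93.3 and 44.5 to 94.6 CPM, with 7 of 11 below 0. Of the paired gene models that carry the symbols Crabp2 and Ogn, 1 each was at 0 counts in all 8 libraries and the other was not. Their highest marker was Igf2, at a mean of 23.1 CPM.

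Excitatory neuron markers were at 2708 to 3113 CPM in scrambled and 2312 to 2923 CPM in knockdown libraries, with 7 of 9 above 0, led by Slc17a7 at 2160 CPM. Interneuron markers other than those of parvalbumin cells were at 1953 to 2517 and 1857 to 2053 CPM, with 5 of 8 below 0, led by Cck at 1185 CPM. Microglia markers were at 405 to 675 and 382 to 661 CPM with 6 of 10 below 0. Endothelial and mural markers were at 201 to 217 and 181 to 232 CPM with 5 of 10 below 0, and Cldn5, an endothelial tight junction gene, was listed at 0 counts in all 8 libraries. Striatal neuron markers were at 534 to 641 and 487 to 566 CPM with 5 of 9 below 0, and Isl1 was at 0 counts. Red blood cell markers were at 607 to 2438 and 359 to 759 CPM with 6 of 6 below 0. Their median log2 fold change was −1.15. Of these 6 markers, 5 were lower at an unadjusted p under 0.05 in edgeR, against 3.2% of all genes. For 2 of the 6 the groups did not overlap, with knockdown lower, against 1.65% of all genes. The part of blood in the values of the matrix genes was not tested. Among the 10 matrix genes, Hapln2, Hapln3 and Pvalb, no library stood apart by Dixon's criterion in any of 26 groups of 4.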
